A study of Saccharomyces cerevisiae with 11 samples.

Results

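This comparison set the yeast culture labelled 200 aureobasidin at 72 h against the culture labelled 150 aureobasidin at 72 h, to find which designed activation-domain peptides gained or lost share of the pool under the higher label. It used 2 of the 11 samples of the series, chosen by their labels, and the 5 barcoded libraries of each. The host was Y2H Gold, a Saccharomyces cerevisiae reporter strain, in medium without tryptophan. Both cultures carried the same pool of plasmids, each encoding 1 designed peptide, and were diluted each day to keep them growing. The doses are given without a unit because the labels disagree between a molar amount and a mass per volume.

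An activation domain is the stretch of a transcription factor that recruits coactivators and the transcription machinery, and many such stretches in yeast mix acidic residues with aromatic or leucine residues. Aureobasidin A is an antifungal that blocks inositol phosphorylceramide synthase, the yeast enzyme that AUR1 encodes. Y2H Gold holds a resistance allele of AUR1 as a Gal4-responsive reporter, so a cell whose peptide activates the reporter more strongly can go on growing, and its plasmid takes a larger share of the reads.

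Each peptide is called by its number in the deposited table, as an entry. The pool held 12400 entries in 143 design sets, most of them peptides of 20 residues. The sets that matter most here are 19 substitution series built on the same 100 parent peptides, which consist of tryptophan, aspartate and glycine. In a glycine series some glycines of each parent became 1 other residue, and in the other series all or some tryptophans or aspartates were replaced. A substitution is written with the parent's residue first, then its position counted from the peptide's first residue, then the new residue. The deposited table also gives a DNA barcode of 20 bases for most entries. Those of the entries on which the results turn are shown because they are what identifies these plasmids in the table, and the table does not say where in the plasmid they lie. The first 4 lines are entries that gained share among the most abundant peptides, the next 4 are abundant entries with small changes or none, then come 2 of the largest gains and 2 of the largest losses.
entry 8135, carrying G5L G12L G16L: ggccacatgtgtctgtcttt
entry 8122, carrying G1L G6L G11L G12L G15L: gatgttgtagagcttgatcg
entry 8235, carrying G5M G12M G16M: cctccatcgcgttgcatacg
entry 8256, carrying G12M G14M: cactttcgattagtcacgtc
entry 8824, carrying G1P G5P G18P: ctgtgaacgcattcgctagc
entry 8168, carrying G7L G11L G19L: gacactgacgttttacccct
entry 8173, carrying G1L G8L G18L G20L: ccctccttcgctactgattc
entry 8210, carrying G10M G12M G19M: ctacgatttatagtgatggg
entry 8856, carrying G12P G14P: aacctgagtcgtcctacata
entry 7524, carrying W3L W10L W13L W17L: ccattgagatgctggactac
entry 8868, carrying G7P G11P G19P: tgtggctcccatcgttcttt
entry 9207, from the composition grid: ctctgccgccccactattga

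The libraries held 1483123 to 3392656 counts at label 200 and 1176575 to 2807017 counts at label 150. No pair of libraries was identical. Barcode numbers marked sub-libraries that were tagged before cloning, so the same number marks the same sub-library in both cultures, and every test across entries took the number as a block. Nothing in the labels says that the 5 barcodes were separate cultures. The p-values therefore measure the spread between barcoded sub-libraries, which may be technical, and with 1 sample per label the dose and the culture cannot be told apart. The calls needed the block: with edgeR's quasi-likelihood test and no block, 0 entries rose and 0 fell, with 0 higher and 140 lower at an unadjusted p under 0.05.

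The pool was more concentrated at label 200 than at label 150. The effective number of sequences, which is the inverse of the summed squared shares, was 17.8, 13.2, 24.7, 20.6 and 31.8 in the 5 libraries of label 200 and 44.8, 34.2, 58.7, 59.0 and 68.1 in those of label 150. The groups did not overlap, with means of 21.6 ± 7.04 and 52.9 ± 13.4 (SD, n = 5 each; two-sided exact permutation test, p = 0.00794, the smallest that 5 against 5 can give, adjusted p = 0.0190 over 12 values per library). The summed share of the 10 largest entries was 40.8 ± 3.64% at label 200 and 29.6 ± 2.40% at label 150, higher in 5 of 5 barcodes (exact permutation adjusted p = 0.0190). The largest entry held 19.6 ± 5.41% at label 200 and 10.9 ± 3.22% at label 150, also higher in 5 of 5 barcodes (exact permutation adjusted p = 0.0408). An exact permutation test that flips signs within barcodes cannot go below p = 0.0625 with 5 pairs.

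At the same time many more entries kept a few reads at label 200. Of all entries, 9703 had a read at label 200 and 2574 at label 150, and 2540 had reads in both. The 7163 entries read only at label 200 held 0.224 ± 0.0414% of its reads (SD, n = 5), with a highest mean of 2.98 CPM (counts scaled to a library total of 1e+06) for any of them. Thinned to the depth of the smallest library, a library held 3729 ± 203 entries at label 200 and 1899 ± 12.9 at label 150 (SD, n = 5 each; exact permutation adjusted p = 0.0190). The 153 entries that begin with a stop codon, which encode no peptide, followed the same pattern. They had 0.00428 ± 0.00132% of reads at label 200 and 0 of 9941724 reads at label 150, which allows a share of up to 3.02e-05%. At label 200 the stop-first share was 0.0517, 0.0558, 0.0166 and 0.00428% at 12, 24, 48 and 72 h, and at label 150 it was 0.0204, 0.00145, 7.26e-05 and 0% at the same times, from 0.400% at 0 h. Intervals and limits of this kind cover counting error only, because amplified reads are not independent molecules.

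Among entries with reads in both cultures and a mean of at least 10 counts, most lost share at label 200 and few gained. These 1486 entries held 99.7% of label 200 reads and 99.9% of label 150 reads, and a further 1054 entries were below the minimum. On counts scaled to library totals, 141 entries (9.49%) rose and 1119 (75.3%) fell at label 200 (edgeR quasi-likelihood test with barcode block, Benjamini-Hochberg adjusted p under 0.05). The median change was -0.94 on the log2 scale, with quartiles of -1.49 and -0.33 and a range of -3.14 to 1.76. In all 5 barcodes 128 entries were higher and 979 were lower, and 379 were mixed. At least 2-fold changes were called for 23 gains and 700 losses.

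The split between gains and losses depended on the scale. With TMM factors, which centre the bulk of entries, the median was -0.14, a shift of 0.80, and 463 entries rose and 516 fell. With DESeq2 size factors the shift was 0.84, and 471 rose and 466 fell. Changes below are shares of the pool unless another scale is named, and an entry is above the typical entry when its change exceeds -0.94.

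**Figure D1:**
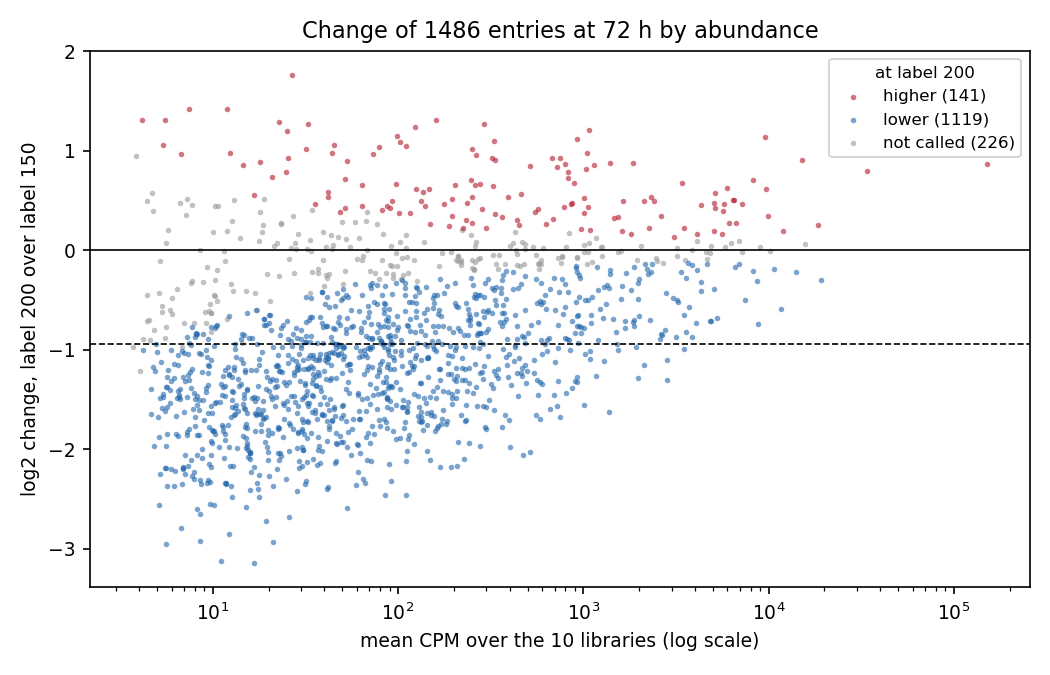
Log2 change of label 200 over label 150 (vertical axis) against mean CPM over the 10 libraries (horizontal axis, log scale) for the 1486 tested entries, with 141 higher in red, 1119 lower in blue and the rest in grey. The dashed line is the median, -0.94, which lies at -0.14 with TMM factors; the 4 most abundant gains are at the far right, above 0.

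Abundant entries kept or gained share more often. Above 1000 CPM, 47 of 170 entries rose and 90 fell, with a median change of -0.15. Between 100 and 1000 CPM, 57 of 471 rose, with a median of -0.76, and between 10 and 100 CPM, 32 of 663 rose, with a median of -1.18. Below 10 CPM the count was 5 of 182, with a median of -1.34. The mean used here includes the libraries compared. On a measure that uses none of them, the change at label 150 between 0 h and 48 h, the 158 entries that had grown by 2 to 4 log2 units had a median of -0.16, the 680 that had grown by 0 to 2 had -0.82, and the 562 that had shrunk by 0 to 2 had -1.37.

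The 5 gains among the 8 most abundant entries were leucine, methionine and proline variants of glycine. Entry 8135, with leucine at 3 of its parent's 6 glycines and 7 tryptophans and 7 aspartates, had the largest mean share of the pool, although entry 8122 was larger in barcode 5 at both labels. It took 22.1, 26.0, 18.2, 20.5 and 10.6% of reads in barcodes 1 to 5 at label 200, and 12.7, 15.1, 9.80, 10.3 and 5.94% in the same barcodes at label 150. Each barcode was higher at label 200, although the groups overlapped, and the change was 0.86 ± 0.03 (log2, SE; adjusted p = 6.50e-17), or 1.82-fold. Entry 8122, with 5 leucines among 5 tryptophans and 5 aspartates, had 2.31, 5.17, 1.80, 0.974 and 11.4% at label 200 and 1.20, 3.14, 1.03, 0.589 and 6.52% at label 150. Its share differed more between barcodes than between labels, yet it was higher in 5 of 5 barcodes (0.80 ± 0.04 log2, adjusted p = 3.12e-15).

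The methionine version of entry 8135 rose by a similar amount. Entry 8235 carries methionine at the same 3 positions and had 3.39, 1.46, 1.51, 2.42 and 1.01% of reads at label 200 and 1.92, 0.763, 0.798, 1.39 and 0.479% at label 150. The change was 0.91 ± 0.05 (log2, SE; adjusted p = 2.44e-15), higher in 5 of 5 barcodes. Entry 8256, with 2 methionines beside 8 tryptophans and 8 aspartates, had 0.982, 1.79, 1.22, 0.744 and 1.80% at label 200 and 0.457, 0.872, 0.571, 0.314 and 0.785% at label 150. Its log2 ratio was between 1.04 and 1.24 by barcode (1.14 ± 0.05, adjusted p = 6.50e-17), the largest change among the 8 most abundant entries.

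The other 4 of the 8 most abundant entries fell, were not called or rose less. Entry 8168, with 3 leucines in a parent of the same composition as that of entry 8135, had 1.27, 1.96, 1.71, 1.10 and 2.53% at label 200 and 1.61, 2.53, 2.02, 1.26 and 3.23% at label 150. It was lower in 5 of 5 barcodes (-0.30 ± 0.04 log2, adjusted p = 3.27e-07), but higher with TMM factors (0.51) and with DESeq2 (0.53). Entry 8210, with 3 methionines, also fell (-0.22 ± 0.04 log2, adjusted p = 3.44e-05), and it too was higher with TMM factors (0.59) and DESeq2 (0.62). Entry 8173, with 4 leucines, changed by 0.06 ± 0.04 log2 and was not called (adjusted p = 0.192). Entry 8824, with 3 prolines, rose by 0.26 ± 0.04 log2 (adjusted p = 3.54e-06), to 2.03% of reads at label 200, against 1.66% at label 150.

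**Figure D2:**
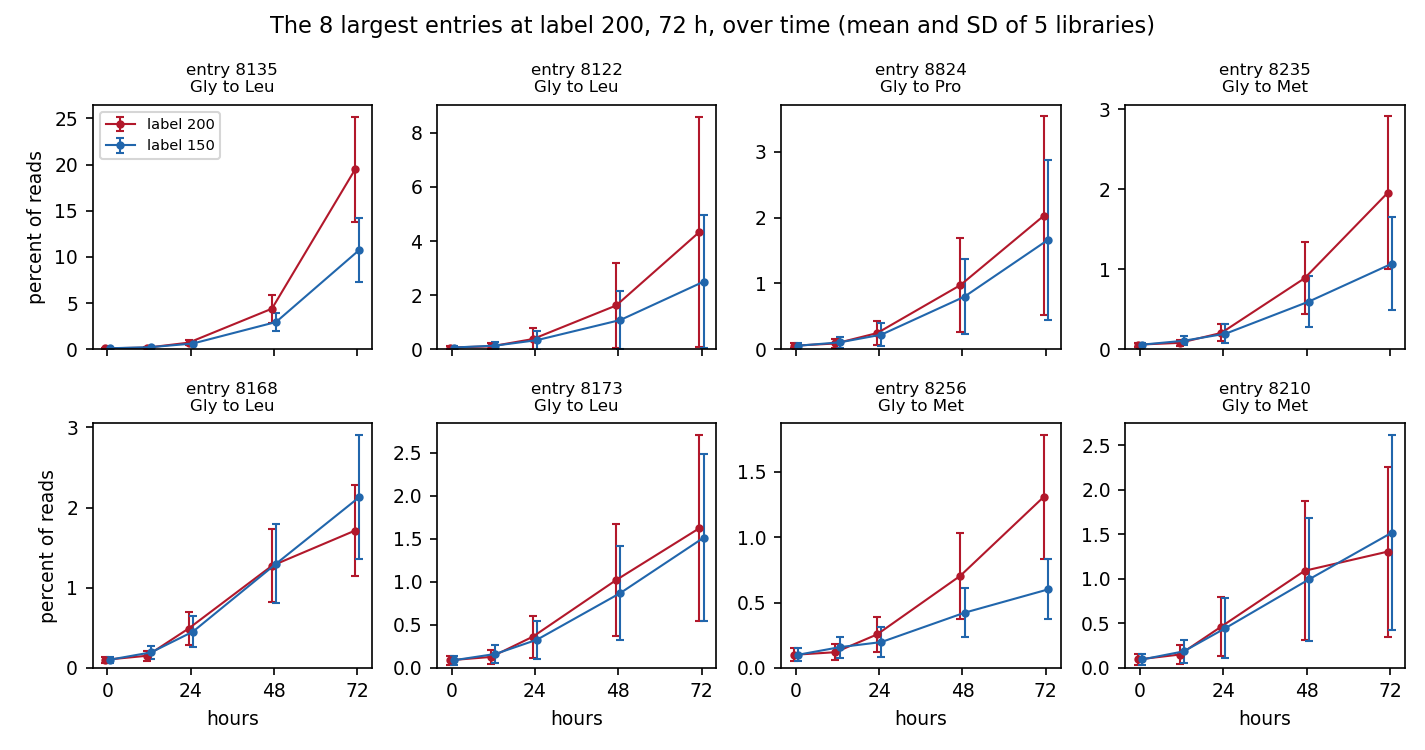
Percent of library reads (vertical axis, mean and SD of 5 libraries) over hours of growth (horizontal axis) for the 8 entries with the largest share at label 200 at 72 h, with label 200 in red and label 150 in blue. Entry 8135 reached 19.5% at label 200 and 10.8% at label 150; for entries 8122, 8824, 8168, 8173 and 8210 the labels' means lie within each other's SD, which does not take the pairing of barcodes into account.

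By summed reads on library totals, leucine was the 1 of the 11 glycine series called higher. With DESeq2 the methionine (0.28), proline (0.41) and asparagine (0.17) sums rose as well. The glycine-to-leucine series held 45.6, 44.4, 42.3, 40.8 and 47.2% of reads in the 5 libraries of label 200 and 36.6, 33.6, 35.2, 31.9 and 38.3% in those of label 150. The groups did not overlap, and the change of the sum was 0.33 ± 0.03 (log2, SE; adjusted p = 8.35e-07). With entry 8135 taken out of the sum but kept in the library totals, the series changed by -0.01 log2 units and was not called (adjusted p = 0.886). The summed share of its other entries was thus level on library totals, and totals without entry 8135 were not tested for the series. The methionine series held 18.3 ± 3.27% at label 200 and 18.9 ± 3.30% at label 150 and was not called by total scaling (-0.05 log2, adjusted p = 0.113), and with TMM factors it was higher without passing (0.14). The proline series held 8.16 ± 2.78% at label 200 and 7.58 ± 1.97% at label 150 and was not called (0.08 log2, adjusted p = 0.137), but it rose with TMM factors (0.27) and with DESeq2 (0.41).

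The other 8 glycine series fell by summed reads. The largest loss was in the cysteine series, with 0.179 ± 0.0677% at label 200 and 0.350 ± 0.110% at label 150 (-0.99 log2). Serine (-0.59), alanine (-0.55), isoleucine (-0.54) and valine (-0.48) lost less, and glutamine (-0.27), threonine (-0.25) and asparagine (-0.17) least, although with DESeq2 the sums of glutamine (0.06), threonine (0.08) and asparagine (0.17) were higher, as was that of asparagine with TMM factors (0.03). In the leucine series 15 of 69 tested entries rose and 48 fell (median -0.48), in the methionine series 12 of 76 rose and 52 fell (median -0.55), and in the proline series 21 of 87 rose and 56 fell (median -0.74), beside 9.49% of all tested entries that rose and 75.3% that fell (median -0.94). With TMM factors, 38 leucine, 42 methionine and 37 proline entries rose and 19, 19 and 20 fell.

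**Figure D3:**
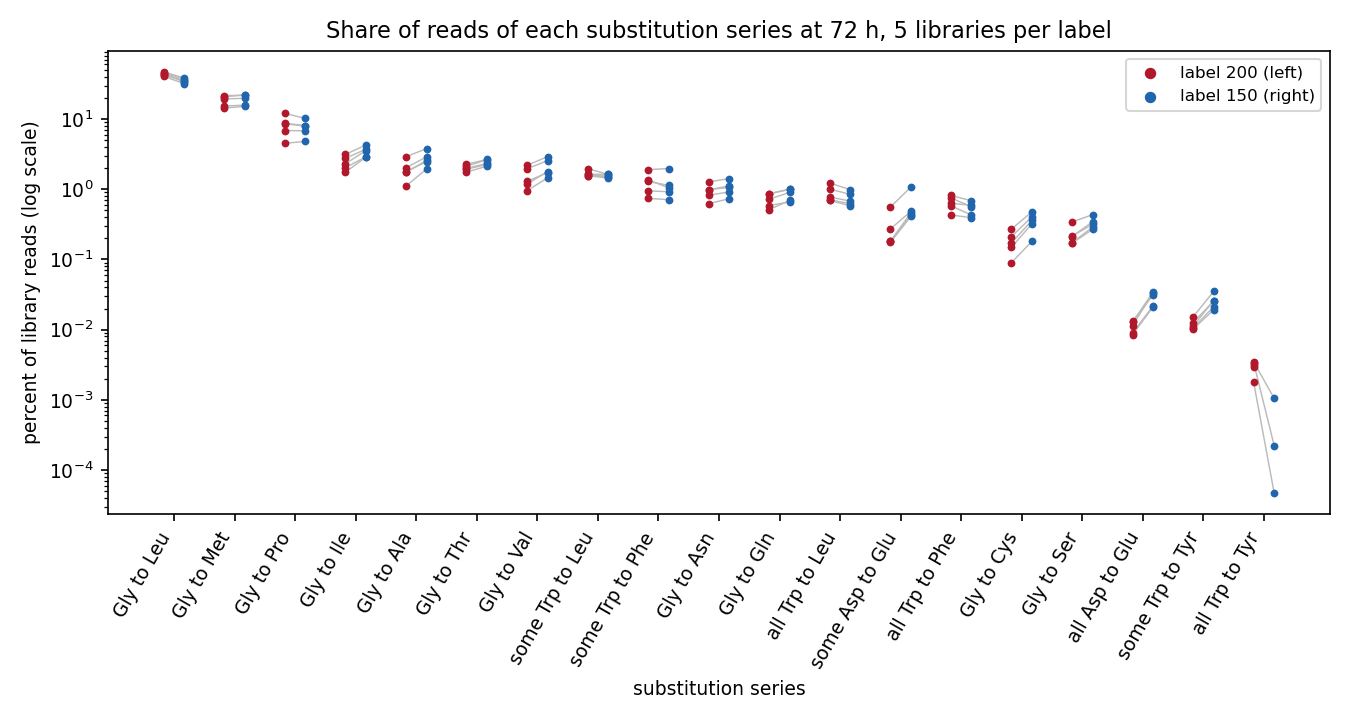
Percent of library reads (vertical axis, log scale) summed over each of the 19 substitution series (horizontal axis), with the 5 libraries of label 200 in red at the left and those of label 150 in blue at the right, and lines joining the same barcode. The leucine series of glycine lies at 40.8 to 47.2% at label 200 and 31.9 to 38.3% at label 150; libraries with no read of a series cannot be drawn.

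Peptides in which tryptophan had been replaced by phenylalanine or leucine gained more often than the tested entries as a whole. Of the 232 tested entries of these 4 series, 64 (27.6%) rose and 103 fell, with a median of -0.16, beside 9.49% and -0.94 over all tested entries. Of the 311 tested entries of the composition grid, whose members hold tryptophan, aspartate and glycine and in some sets arginine, 2 (0.643%) rose and 289 fell, with a median of -1.42. With TMM factors the replaced peptides had 142 higher and 13 lower and a median of 0.66, whereas the grid had 37 higher and 178 lower and a median of -0.61. The gap was also present within classes of mean CPM, which are wide and are taken over the libraries compared. Between 100 and 1000 CPM the phenylalanine and leucine replacements had a median of -0.09 over 74 entries and the grid had -1.20 over 95, and between 10 and 100 CPM the values were -0.23 over 119 and -1.57 over 155.

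Set beside their own parents, which cancels the choice of scale, these variants were mostly above them. Where both were tested, the change of the variant exceeded that of its parent in 52 of 52 peptides with all tryptophans replaced by phenylalanine, with a median difference of 1.21 log2 units. The count was 53 of 56 with some tryptophans replaced by leucine (median 1.17), 23 of 31 with all replaced by leucine (0.99) and 56 of 59 with some replaced by phenylalanine (0.87). Tyrosine, the third replacement, went the other way: 8 of 8 tested pairs were below their parent (median -0.88), 10 of 10 tested entries with some tryptophans as tyrosine fell, and no entry with all tryptophans as tyrosine reached the minimum. These counts cover only entries that passed the minimum, and the parents themselves fell in 67 of 71 tested cases (median -1.37), with 0 rising; with TMM factors 12 parents rose and 38 fell.

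Glycine variants stood above their parents by less. The median difference from the parent was 0.83 for methionine (54 of 61 above), 0.77 for leucine (45 of 57), 0.69 for proline (56 of 65), 0.60 for asparagine (54 of 63) and 0.56 for glutamine (43 of 52). Threonine (0.35) and alanine (0.25) were closer to the parents, and serine had a median of -0.03. Valine (-0.10) and isoleucine (-0.23) lay below them, and cysteine was furthest below (-0.94, with 1 of 14 above). In the same parents isoleucine was below leucine in 31 of 31 pairs, with a median of -1.30.

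**Figure D4:**
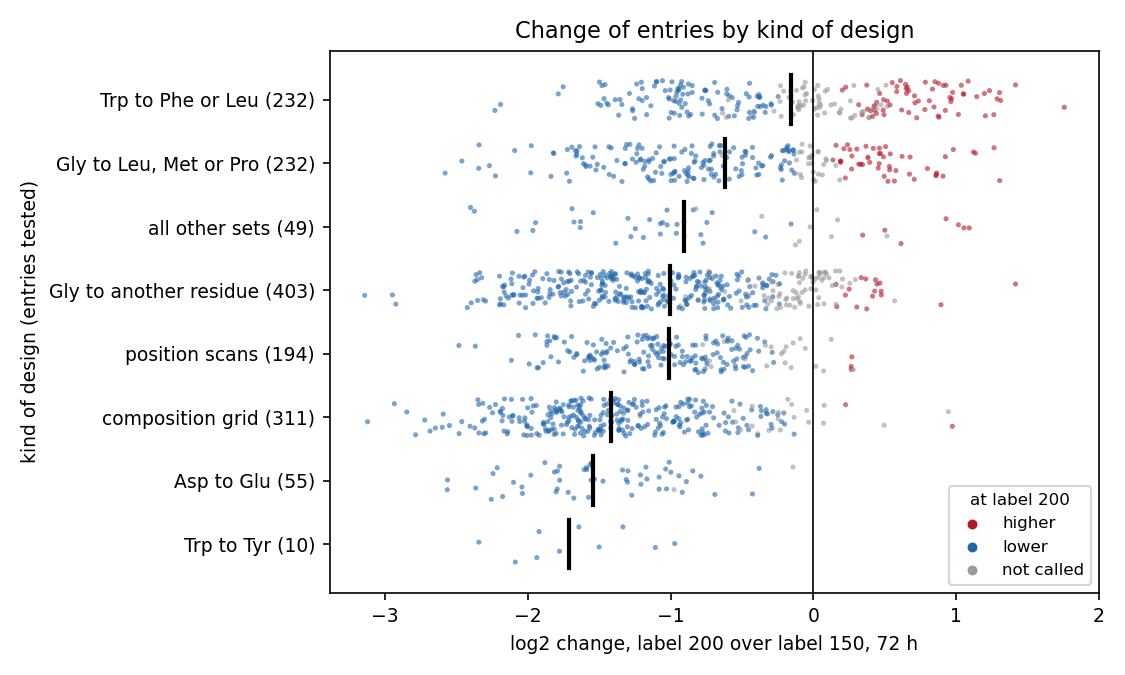
Log2 change of label 200 over label 150 (horizontal axis) for tested entries by kind of design (vertical axis, number tested in brackets), in red where higher, blue where lower and grey where not called, with a black bar at each median. Trp to Phe or Leu has its median at -0.16 and the composition grid at -1.42; with TMM factors these medians are 0.66 and -0.61.

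Entries with aspartate replaced by glutamate mostly fell, as did their parents. Of the 55 tested entries with aspartate replaced by glutamate, 0 rose and 53 fell, with a median of -1.55, beside 67 of 71 tested parents that fell (median -1.37) and 75.3% of all tested entries (median -0.94). With TMM factors 2 of the 55 rose and 33 fell. The series with some aspartates replaced held 0.273 ± 0.163% of reads at label 200 and 0.571 ± 0.283% at label 150 (SD, n = 5 each; -1.12 ± 0.08 log2, adjusted p = 2.01e-07). The series with all replaced held 0.0109 ± 0.00212% at label 200 and 0.0284 ± 0.00646% at label 150 (-1.37 ± 0.14 log2, adjusted p = 3.94e-06). All 10 tested pairs with every aspartate replaced were below their parents (median -0.40), and with some replaced 29 of 40 were below and 11 above (median -0.34).

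The same substitution moved differently in different parents. Over the 635 tested glycine variants the parent accounted for 34.6% of the variance of the change, the new residue for 13.0% and both together for 55.8%. There were 94 parents but 11 new residues, so these percentages rest on unequal numbers of groups and do not rank the parent above the residue. The leucine and methionine variants of a parent moved alike, with a Spearman correlation of 0.70 over 65 parents, while leucine and proline variants did so less (0.16 over 68). These points share libraries and clones within a barcode, so the correlations are descriptions. Of the 97 parents with a tested variant, 50 had at least 1 variant that rose, and all 50 also had 1 that fell, where 129 of the 932 tested variants rose and 628 fell.

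The parents of the 8 most abundant entries show this. The family of parent 12035, which includes entries 8135 and 8235, held 21.5% of reads at label 200 and 12.0% at label 150. Its leucine and methionine variants rose, but its proline (-0.98), threonine (-1.10), alanine (-1.33), asparagine (-1.42), valine (-1.43) and glutamine (-1.84) variants and the parent itself (-1.67) fell. In the family of parent 12056 the order was different: the methionine variant, entry 8256 (1.14), and the proline variant, entry 8856 (1.27), rose, whereas the leucine variant fell (-0.83). Entry 8856 had 0.0193, 0.0426, 0.0864, 0.0185 and 0.0378% of reads at label 200 and 0.00795, 0.0181, 0.0380, 0.00850 and 0.0135% at label 150.

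In the family of parent 12010 the phenylalanine and leucine variants of tryptophan gained and the glycine variants mostly did not. All tryptophans as phenylalanine (0.81), some as phenylalanine (0.88) and all as leucine (0.91) rose, as did asparagine for glycine (0.37), whereas leucine (-1.32) and methionine (-0.22) for glycine and tyrosine for some tryptophans (-1.33) fell. In the family of parent 12068, 0 of 13 tested variants rose and 11 fell, beside 129 and 628 of the 932 tested variants of all parents. Its proline variant had the largest loss of any named entry. That entry, 8868, had 0.00248, 0.00568, 0.00442, 0.00330 and 0.00136% of reads at label 200 and 0.0135, 0.0313, 0.0232, 0.0137 and 0.0116% at label 150. The groups did not overlap (-2.46 ± 0.13 log2, adjusted p = 1.07e-14), a 5.52-fold loss.

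**Figure D5:**
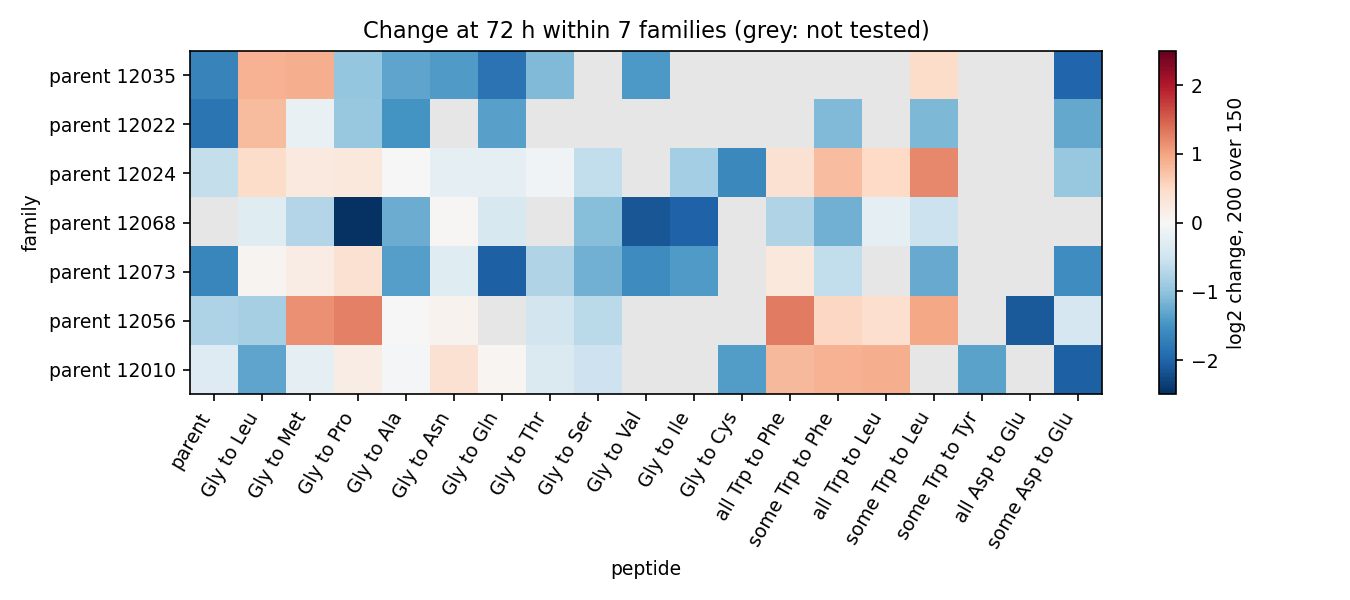
Log2 change of label 200 over label 150 (colour, red higher and blue lower, grey not tested) for 7 parents (rows) and their variants (columns). The leucine variant of glycine is at 0.86 in the family of parent 12035 and at -1.32 in that of parent 12010, and the phenylalanine and leucine variants of tryptophan in parent 12010 lie between 0.81 and 0.91; zero shifts by 0.80 with TMM factors.

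The largest gains among entries with at least 100 CPM came from proline, tryptophan and methionine variants and a control, and moving one way in 5 of 5 barcodes was part of how these gains and the losses below were chosen. Entry 8796, with 5 prolines in place of glycine, rose 2.47-fold, and entry 8856 rose 2.40-fold. Entry 7301, with 4 of 9 tryptophans as phenylalanine, rose 2.35-fold, and entry 7524, with leucine at 4 of 7 tryptophans, rose 2.31-fold. Entry 7524 had 0.453, 0.0803, 0.0910, 0.0815 and 0.0404% of reads at label 200 and 0.205, 0.0441, 0.0362, 0.0297 and 0.0168% at label 150, and barcode 1 held most of it in both cultures. Entry 8890, with 3 prolines, rose 2.17-fold in the fit with barcode block, and its log2 ratio by barcode ran from 0.86 to 1.26. Most of it lay in barcode 4, with 6261 CPM at label 200 and 2615 CPM at label 150. Entries 7569, 7201 and 7245, with leucine for some or all tryptophans, rose 2.07-, 1.97- and 1.94-fold.

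The largest losses lay mainly in the composition grid. Besides entry 8868 they were entries 9626, 10076, 10814, 9207, 11610, 10470 and 9230 of the grid, entry 2839 of the set W-neighbors-3, and 1 variant each with glutamate (entry 7770), alanine (entry 7830) and isoleucine (entry 8089). Their losses ran from 3.94-fold to 4.53-fold. Entry 9207, with 9 tryptophans, 6 aspartates and 5 glycines, had 68.7, 226, 160, 317 and 136 CPM at label 200 and 277, 1052, 661, 1273 and 547 CPM at label 150. Its log2 ratio by barcode was between -2.22 and -2.01.

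Control peptides of equal composition and different order of tryptophan and aspartate had very different shares. The WD-controls set holds 6 peptides with 4 entries each, and its summed share was 3.48 ± 1.70% at label 200 and 2.86 ± 1.50% at label 150 (0.30 ± 0.05 log2, adjusted p = 8.63e-05). A peptide with 8 leading glycines, then 7 tryptophans and 5 aspartates mixed in 3 tryptophan runs, held 2.20 ± 1.31% at label 200 and 1.57 ± 1.03% at label 150, and its 3 tested entries rose by 0.35 to 0.61. A peptide of the same composition, with 4 of its aspartates before the first tryptophan and a run of 6 tryptophans at the end, had 35 reads at label 200 and 0 at label 150, although it made up 0.175% of reads at 0 h.

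The second matched pair had 10 leading glycines, 5 tryptophans and 5 aspartates. With the tryptophans in 1 run between 3 and 2 aspartates it held 1.25 ± 0.651% of reads at label 200 and 1.23 ± 0.651% at label 150, and 0 of its 4 entries were called (-0.02 to 0.17). With all 5 aspartates first it had 30 reads at label 200 and 1 at label 150, from 0.175% at 0 h. The third pair, without glycine, had 10 tryptophans and 10 aspartates. In strict alternation it held 0.0268 ± 0.0115% at label 200 and 0.0655 ± 0.0307% at label 150, from 0.0604% at 0 h. The 3 tested entries of this order fell by 1.15 to 1.30. As 2 blocks, here with the tryptophans first, it had 24 reads at label 200 and 0 at label 150, from 0.0198% at 0 h. The block arrangements were too rare for a test of the labels.

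Activation domain controls split between 1 gain and several losses. Of their 21 tested entries 4 rose and 12 fell (median -0.41), beside 9.49% and 75.3% of all tested entries (median -0.94). The gain was the control called vP16 min x 2, by its name a doubled minimal stretch of the herpes simplex activator VP16. It had 4 of 4 entries higher, by 0.93 to 1.09, and held 0.163, 0.276, 0.0638, 0.0771 and 0.0456% of reads at label 200 and 0.0833, 0.157, 0.0298, 0.0345 and 0.0196% at label 150 in total. The groups overlapped, but each barcode was higher at label 200, and the sum rose 2.06-fold (1.04 ± 0.08 log2, adjusted p = 3.61e-07). The sum was higher by 1.03 at 48 h. The control called VP16 min had 0% of reads in each library of label 150, so it was not tested. The control from Oaf1, the yeast regulator of the oleate response, was more abundant, with 0.823 ± 0.0879% at label 200 and 1.01 ± 0.0933% at label 150. Its sum fell (-0.30 ± 0.05 log2, adjusted p = 0.000153) and 3 of its 4 entries fell, whereas with DESeq2 the sum was level (0.03) and with TMM factors all 4 entries were higher.

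The other controls with tested entries or sums held smaller shares. The EKLF control, tested by its sum alone, had 0.000502% of reads at label 200 and 0.00154% at label 150 and fell (-1.65 ± 0.44 log2, adjusted p = 0.00547). Gal4, the yeast activator of galactose genes, fell in 2 of 3 tested entries (sum -0.74), KLF4 in 2 of 2 (-1.21) and the control VP16 21aa in 2 of 3 (-1.57). The control from plant HSFA2 was not called by its sum (-0.23, adjusted p = 0.111), although 2 of its 3 tested entries fell. The AH control fell by its sum (-0.70, adjusted p = 0.0420), but without its largest entry it was at 0.12 and was not called. The p53-AD1 control was not called (0.01, adjusted p = 0.992). Over the 10 peptides with more than 1 tested entry, entries of the same peptide differed by a pooled SD of 0.31 log2 units, against 0.82 over all tested entries, and 8 of the 10 peptides had their entries on 1 side of zero.

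Across the 89 design sets with enough reads, 32 (36%) rose and 38 (42.7%) fell by summed reads. Of those that rose, 26 each held under 0.01% of label 200 reads, together 0.0861% at label 200 and 0.00663% at label 150, with changes of 1.21 to 7.88 log2 units. Among them, 1w1d had 487 reads at label 200 and 4 at label 150, and 1f1d had 764 reads at label 200 and 2 at label 150, beside 513 and 0 reads of stop-first entries. The part of such trace reads in these gains was not tested beyond taking off a share spread like the pool at 0 h and sized by stop-first reads (0.768 to 1.60% of each library), after which 28 sets rose and 46 fell. Among the 34 sets with at least 0.05% of label 150 reads, 5 rose: glycine to leucine, vP16 min x 2, the WD-controls, and tryptophan to phenylalanine (0.26) or leucine (0.24) at all positions. Another 23 fell and 6 were not called. Without the block, 26 sets rose and 14 fell. Sets such as 1w1d and 1f1d passed the minimum through their label 200 reads, so a rise was the only call open to them. With a mean of at least 10 counts in each group, 10 sets rose and 38 fell.

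Reads at label 200 encoded more leucine, and a large part of that difference lay in entry 8135. A read encoded on average 1.77, 1.71, 1.70, 1.52 and 2.03 leucines at label 200 and 1.52, 1.41, 1.51, 1.31 and 1.69 at label 150, higher in 5 of 5 barcodes (means 1.75 ± 0.186 and 1.49 ± 0.145, exact permutation adjusted p = 0.0317). Glycine was lower, with 4.04 ± 0.107 at label 200 and 4.26 ± 0.0753 at label 150 (exact permutation adjusted p = 0.0190). The 3 leucines of entry 8135 alone contributed 0.585 leucines per read at label 200 and 0.323 at label 150, a difference of 0.262 beside the 0.259 in all. With that entry left out and shares rescaled, an alternative chosen after seeing the data, leucine was 1.43 ± 0.298 at label 200 and 1.30 ± 0.205 at label 150. Glycine was then 4.30 ± 0.144 at label 200 and 4.42 ± 0.105 at label 150. Neither passed the unpaired test (exact permutation adjusted p = 0.610 and 0.349). Within barcodes, leucine without that entry was still higher in 5 of 5 (0.129 ± 0.109, SD of the differences). Glycine was still lower in 5 of 5 (-0.121 ± 0.0549), each at p = 0.0625 in the exact sign-flip permutation test. Numbers of tryptophan (6.26 and 6.19), aspartate (6.44 and 6.31), methionine (0.651 and 0.716), proline (0.283 and 0.278) and arginine (0.00917 and 0.00754) at labels 200 and 150 did not pass the unpaired exact test (adjusted p = 0.265, 0.0952, 0.486, 0.937 and 0.615). Within barcodes, aspartate was higher in 5 of 5 (0.132 ± 0.0453, SD of the differences) and methionine was lower in 5 of 5 (-0.0653 ± 0.0268), each at p = 0.0625 in the exact sign-flip permutation test, the smallest that 5 pairs allow. Across entries, where each counts once, the change had a Spearman correlation of -0.19 with the number of tryptophans, 0.24 with phenylalanine, 0.22 with leucine and 0.17 with aspartate. These are descriptions over 1486 entries that share libraries.

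The changes at 72 h ranked much like those at 48 h. On library totals most entries had a more negative difference at 72 h than at 48 h, and few had a more positive one. The same contrast at 48 h, which uses other libraries of the same 2 culture series, had a median of -0.21 and an SD of 0.54 over entries, beside -0.95 and 0.82 at 72 h, and the changes had a Spearman correlation of 0.90 over 1485 entries tested at both times. Of the 141 entries higher at 72 h, 135 were higher at 48 h and 0 were lower. Of the 1119 lower at 72 h, 635 were lower, 442 were not called and 42 were higher at 48 h. In 1 fit of both times, the difference between labels was more positive at 72 h than at 48 h for 21 of 1844 entries (1.14%) and more negative for 1044 (56.6%), whereas 0 and 0 passed without the block and 155 and 135 passed with TMM factors. For summed sets it was more positive for 1 of 99 (1.01%) and more negative for 31 (31.3%). Entries 8135, 8122, 8235 and 8256 were among those that grew further apart, by 0.30, 0.23, 0.31 and 0.42. The Oaf1 control was higher at label 200 at 48 h (0.23) and lower at 72 h (-0.30), a difference of -0.54 (adjusted p = 5.04e-05).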

How the data were processed

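The members and lists were chosen with earlier results of these data known. The authors deposited raw read counts per peptide and library, per the file headers, and their read processing is not given in the sources used here. Per the labels' protocols, the pool was amplified with barcodes, cloned, grown with antibiotic and daily dilution, and recovered by PCR. Counts were scaled to library totals (1176575 to 3392656) and tested with edgeR 4.0.16 (R 4.3.3, quasi-likelihood, barcode block, adjusted p under 0.05) for entries with a mean of at least 10. The block was used because same-numbered libraries deviated together (correlations 0.923 to 0.944, highest other -0.157, 5 of 5 closest to their own number, 1486 entries). Alternatives were no block, TMM, DESeq2 1.42.0, other minimums, all groups in 1 fit, trace reads taken off, each barcode left out and, for sets and residue numbers, no largest entry. For sets the library totals still counted the entry left out. On simulated data for this comparison (1486 entries), 99% of changes of 1 log2 unit and 73% of changes of 0.5 were recovered, with 0.467% false calls. The simulated gains and losses were equal in number, unlike the real ones, and all entries shared a common dispersion. These rates therefore do not cover the choice of scale or differences between single cultures. Named entries were the 12 largest gains and 12 largest losses with at least 100 CPM moving one way in 5 of 5 barcodes, the 8 largest shares at label 200, and every tested activation domain control. Values per library were tested by exact permutation over 12 values.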

Additional observations from a re-analysis of the deposited data

Results flagged for a closer look

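Dixon's test was applied to 114 groups of 5 barcodes and marked 10, where chance marks about 1 in 20 groups. Among log2 ratios of label 200 over label 150 by barcode, 1 barcode stood apart in entry 7569 (1.62, the highest), entry 9207 (-2.22, the lowest), entry 10470 (-2.46, the lowest), the Gal4 entry 6748 (-0.60, the highest) and the KLF4 entry 6765 (-4.03, the lowest). In that barcode entry 6765 had 0 CPM at label 200 and 5.10 CPM at label 150, so its ratio lay at the floor and rested on the small value added to counts. Among summed shares at label 200, the highest library stood apart for some tryptophans to leucine (1.97%), some aspartates to glutamate (0.556%) and glycine to serine (0.343%). At label 150 it did so for some aspartates to glutamate (1.08%) and all tryptophans to tyrosine (0.00105%).

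The difference between labels 200 and 150 was itself different at 72 h and 48 h, by the interaction term of the edgeR fit with barcode block, for 31 of 49 named entries. Over all 1844 entries in that fit, 56.6% were more negative at 72 h and 1.14% more positive, so such a change was common. With TMM factors 155 entries were more positive and 135 more negative, and without the block 0 and 0. It was more positive at 72 h for entries 8796 (0.44), 8256 (0.42), 8856 (0.35), 8235 (0.31), 8135 (0.30) and 8122 (0.23). It was more negative for abundant entries 8210 (-0.33), 8168 (-0.28) and 8173 (-0.16). It was also more negative for entries 8868 (-1.43), 10076 (-1.25), 9207 (-1.23), 8089 (-1.22), 7830 (-1.20), 7770 (-1.19), 10470 (-1.13), 11610 (-1.11), 2839 (-1.09), 9230 (-1.07), 10814 (-0.98) and 9626 (-0.96). Among control entries it was more negative for AH entry 6729 (-1.03), Gal4 entries 6748 (-0.71) and 6751 (-0.86), KLF4 entry 6764 (-1.58), Oaf1 entries 6780 (-0.54), 6781 (-0.49), 6782 (-0.55) and 6783 (-0.59), plant HSFA2 entry 6791 (-1.01) and VP16 21aa entry 6806 (-1.08).

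Over all 99 summed sets tested, the difference was more negative at 72 h for 31 (31.3%) and more positive for 1 (1.01%). With TMM factors 20 were more negative and 2 more positive. Of the summed series and controls, 15 had a more negative difference at 72 h and 0 a more positive one. These were all aspartates (-0.66) or some aspartates (-0.61) to glutamate, some tryptophans to tyrosine (-0.61), the controls EKLF (-1.19), VP16 21aa (-1.001), AH (-0.997), KLF4 (-0.96), Gal4 (-0.81) and Oaf1 (-0.54), and glycine to cysteine (-0.56), serine (-0.48), isoleucine (-0.42), asparagine (-0.32), alanine (-0.31) and threonine (-0.23).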

How the results depend on the processing

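With no replicate block, entries called higher and lower were 0 and 0, sets called lower were 14, and interactions were 0 and 0 for entries and 0 and 0 for sets. TMM factors gave 463 and 516 entries, 155 and 135 entry interactions, and 2 and 20 set interactions; DESeq2 gave 471 and 466 entries. Sets called higher were 14 with a minimum mean of 50 and 10 with a mean of 10 in each group. More positive entry interactions were 12 with a minimum mean of 50 and 10 with trace reads taken off, and set interactions 2 with a minimum mean of 50. Leaving out 1 barcode gave 123 to 140 entries higher, 1065 to 1113 lower, 12 to 18 positive and 921 to 987 negative entry interactions, 30 to 34 sets higher, 33 to 37 lower, and 0 to 1 positive and 24 to 30 negative set interactions. Values that changed sign with TMM and DESeq2 were entries 8168 (0.51, 0.53), 8210 (0.59, 0.62), 6729 (0.0563, 0.0589), 6749 (0.46, 0.53), 6751 (0.0092, 0.0377), 6780 (0.40, 0.42), 6781 (0.47, 0.50), 6782 (0.71, 0.73), 6783 (0.66, 0.68), 6789 (0.69, 0.71) and 6791 (0.11, 0.14), and glycine to methionine (0.14, 0.28) and asparagine (0.0282, 0.17). With DESeq2 alone they were entry 6804 (0.12), glycine to threonine (0.0809) and glutamine (0.0613), Oaf1 (0.0303) and plant HSFA2 (0.10). Entry 6789 also changed sign with no replicate block (0.14), all groups in 1 fit (0.0398) and, over the barcodes left out, ran from -0.251 to 0.0275, positive without replicate 2. So did plant HSFA2 with no replicate block (0.0684), p53-AD1 with no replicate block (-0.0478), all groups in 1 fit (-0.0344) and without replicate 4 (-0.13), and, without their largest entry, glycine to leucine (-0.0069) and AH (0.12). The exact paired sign-flip permutation test, a replicate block that cannot go below p = 0.0625, no longer passed for the differences in effective number (-31.4), largest entry (8.77), top 10 (11.2), stop-first percent (0.00428), detected entries (1830), glycine (-0.222) and leucine (0.259). Without 1 barcode these ran from -33.9 to -29.6, 8.24 to 9.74, 10.7 to 11.8, 0.00378 to 0.00455, 1750 to 1886, -0.239 to -0.201 and 0.239 to 0.278, tryptophan from 0.0578 to 0.0879, aspartate from 0.115 to 0.146 and proline from -0.0069 to 0.0124. With no thinning, an alternative chosen after seeing the data, the difference in detected entries was 3029. Without the largest entry, also chosen after seeing the data, the differences in leucine (0.129) and glycine (-0.121) no longer passed, and those in tryptophan (-0.0115) and methionine (0.0107), not called before, changed sign. The cause of these changes was not tested.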
